A study of Rattus norvegicus with 12 samples.

Results

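The expression of 10 genes of iron handling was followed in rat lung. Tmprss6 and Hamp set the level of hepcidin, and Tf, Tfrc and Slc11a2 bring iron into cells. Slc11a1 moves metal ions out of phagosomes, Fth1 and Ftl1 store iron, and Slc40a1 and Cp serve its export. The genes were picked through the RefSeq accession of each probe, which gave 15 probes for these 10 of the 14919 genes on the array, and 14 of the 15 probes passed the detection rule. The list was chosen by the signal of 1 of its genes, Tmprss6, which was higher in the CS + LPS + NaHS group than in the CS + LPS group, so every value of that comparison is given as a description, without a test. The lungs came from male Sprague–Dawley rats aged 8 to 12 weeks, 3 rats in each of 4 groups, with the RNA of each rat on an array of its own. Control rats went through the same schedule with air and saline. The CS + LPS group breathed cigarette smoke (CS) up to day 30 and had lipopolysaccharide (LPS), a bacterial cell wall component, instilled into the trachea on days 5 and 19, as a model of chronic obstructive pulmonary disease. The CS + LPS + NaHS group had the same exposure plus intraperitoneal NaHS, a donor of hydrogen sulphide, at 14 μmol/kg. The CS + LPS + PPG group had the exposure plus propargylglycine (PPG), which blocks the enzyme CTH that makes hydrogen sulphide. The left upper lobe was taken 24 h after the last smoke, so a value is the sum over all cell types of the lobe, and a change in the number of cells cannot be told apart from a change in RNA per cell.

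Iron circulates bound to transferrin (Tf), enters cells with the transferrin receptor (Tfrc), leaves the endosome through the transporter DMT1 (Slc11a2), and is either stored in ferritin (Fth1, Ftl1) or released through ferroportin (Slc40a1) with the help of the ferroxidase ceruloplasmin (Cp). Hepcidin (Hamp), a peptide hormone made mainly by the liver, closes ferroportin, and the membrane protease matriptase-2 (Tmprss6), also known mainly from the liver, lowers hepcidin by acting on the BMP pathway that switches it on. In the lung, macrophages take up and hold much of the iron from blood and smoke, and NRAMP1 (Slc11a1) moves metal ions out of their phagosomes.

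Values below are log2 of the background-subtracted signal of the most intense probe of a gene, scaled to the 75th percentile of each array, and a difference of 1 is a fold change of 2. A gene was called differentially expressed (DE) by the rule of the methods, a fold change of at least 2 with an unadjusted p under 0.05 from limma, and adjusted p-values are over all 21239 probes tested. Between 66.0% and 75.5% of the probes of an array were well above background, no spot was saturated, and 12 of 12 tested markers of lung epithelium were well above background on all 12 arrays. The CS + LPS arrays and control replicate 3 lay on slide 2 and all other arrays on slide 1, so that slide and group cannot be told apart where a treated group is set against CS + LPS. Control replicate 3 stood apart, with the lowest 75th percentile (1229, against up to 3261) and a correlation of 0.936 to 0.957 with the other arrays over the tested probes, against at least 0.975 for all other pairs.

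Between arrays 3 of the 10 genes varied widely and 7 varied about as much as the median probe or less. Tmprss6, Slc11a1 and Hamp had the widest ranges over the 12 arrays (2.62, 2.80 and 5.34 on the log2 scale), whereas the other 7 genes ranged over 0.497 to 1.14, where the median tested probe ranged over 1.06. The range of Tmprss6 runs from a CS + LPS array to a NaHS array, the groups whose difference chose the list, so its width is a description only. In the CS + LPS group Slc11a1 was DE against control, and higher, where 4.62% of the 11330 tested genes were DE. In the NaHS group 1 gene was DE against control (Slc11a1, higher; 3.05% of all genes), and in the PPG group 1 was DE (Slc11a1, higher; 5.14%). Between the treated groups 0 of the 10 genes were DE, where 0.635% of all genes were, and at an unadjusted p under 0.05 there was 1 (Tf; 8.51% of all genes). Tmprss6 also lay past both limits of the rule in the CS + LPS group against control, in the PPG group against CS + LPS (2.15% of all genes) and in the NaHS group against CS + LPS (1.92%), but the low CS + LPS arrays of this gene chose the list, so it is not counted as DE and nothing is read from these shares. No other gene of the 10 was DE in the PPG group against CS + LPS. The 3 comparisons with control share the control arrays, and those with the CS + LPS group share its arrays. The median difference from control over the 10 genes was 0.19 in the CS + LPS group, 0.07 in the NaHS group and 0.26 in the PPG group, against −0.02, 0.03 and 0.01 over all tested genes.

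**Figure D1:**
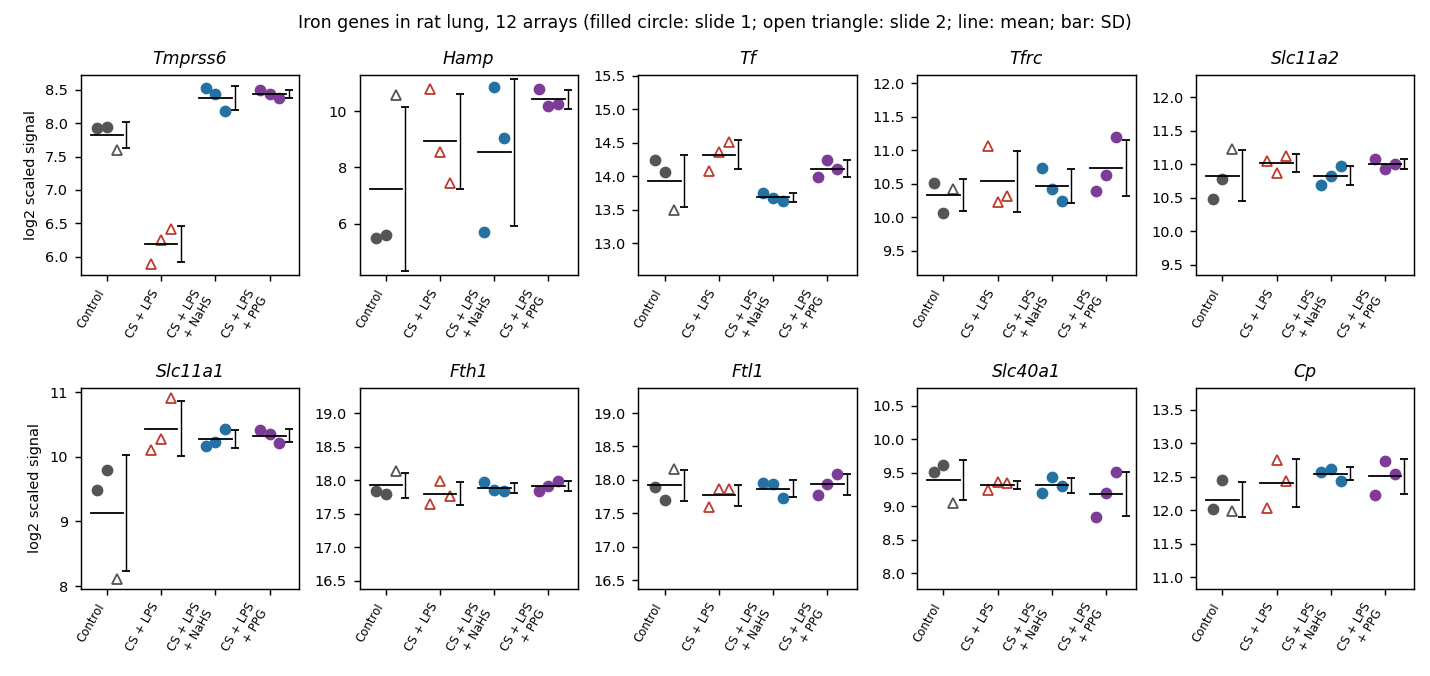
Log2 scaled signal of the 10 iron genes on each of the 12 arrays, by group, with the group mean as a line and the SD as a bar; filled circles are arrays on slide 1 and open triangles arrays on slide 2. The CS + LPS arrays of Tmprss6 lie at 5.90 to 6.42, below every other array, while Fth1 stays between 17.64 and 18.14.

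**Figure D2:**
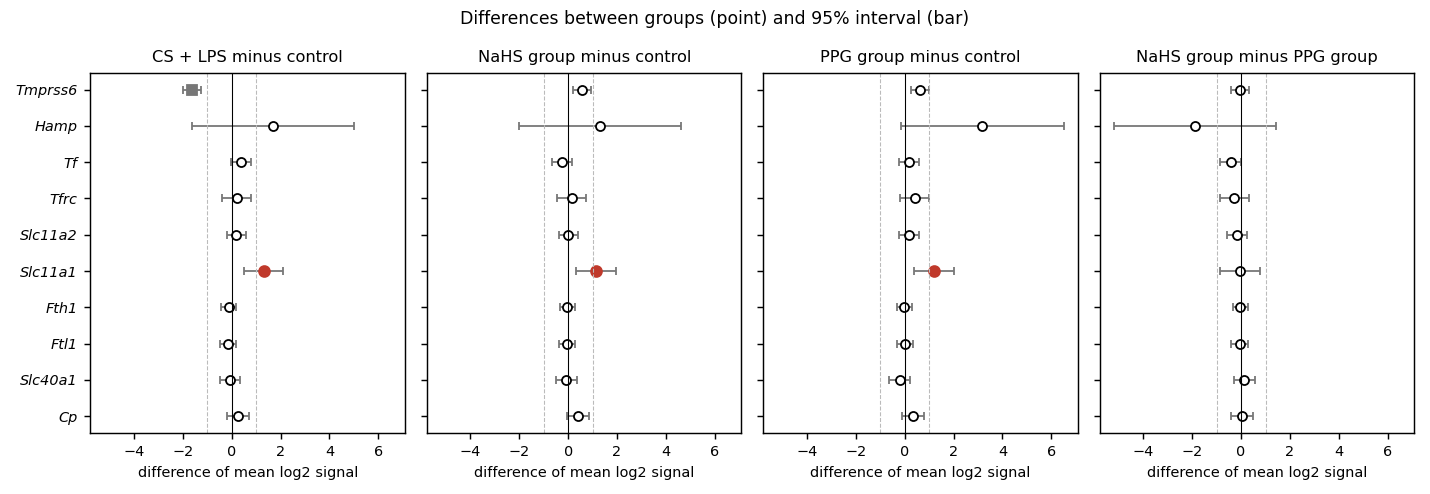
Difference of mean log2 signal between groups for the 10 genes, with the 95% interval of the limma fit. Red points passed the fold change and p-value rule, and dashed lines mark a fold change of 2. The grey square is Tmprss6 in the CS + LPS group, whose arrays chose the list. The intervals of Tmprss6 there and in the panels with the NaHS group take no account of the choice and are not tests. The interval of Hamp in the PPG group minus control runs from −0.14 to 6.51, whereas that of Fth1 in the same comparison runs from −0.31 to 0.29.

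Tmprss6 was lowest in the CS + LPS group and highest in both treated groups. In the control group the log2 signals were 7.92, 7.94 and 7.59. In the CS + LPS group they were 5.90, 6.25 and 6.42, in the NaHS group 8.52, 8.43 and 8.17, and in the PPG group 8.50, 8.43 and 8.37. The order was thus CS + LPS, control and then the treated groups, and only the treated groups overlapped each other. The CS + LPS mean lay 1.63 below control (a 3.09-fold difference), the NaHS mean 2.18 above CS + LPS (4.55-fold) and the PPG mean 2.25 above CS + LPS (4.74-fold). These 3 differences rest on the CS + LPS arrays through which the gene was chosen, and they are a description only. The PPG group, whose arrays the choice did not use, lay 0.62 above control (95% interval 0.25 to 0.98). The unadjusted p was 0.0034 and the adjusted p 0.0545 from limma, so it did not pass after adjustment. Its fold change of 1.53 was below the limit of the rule. The spread behind this interval and p was pooled over all 12 arrays, those of the choice included, so they are not independent of the choice. Within slide 1, which holds all PPG arrays, the PPG mean lay 0.51 above control. The choice also used the NaHS arrays, through their higher signal, so the values of the NaHS group are a description too. Its mean lay 0.56 above control and 0.06 below the PPG group (95% interval −0.42 to 0.30). NaHS adds hydrogen sulphide and PPG blocks its formation. The interval between the groups, which takes no account of the choice, allows NaHS to lie up to 0.42 below or 0.30 above PPG.

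The probe for Tmprss6 covers 60 bases of chromosome 7, from 116392684 to 116392625 in the deposited lists, for which no build is stated, and its 2 spots were well above background on all 12 arrays. Before scaling, the processed signal split by slide. On slide 1 it was 222.5 and 246 in control, 369, 395 and 341 with NaHS, and 366, 354 and 313 with PPG. On slide 2 it was 103 in control replicate 3 and 84.4, 78.3 and 93.4 in the CS + LPS group. Of the 21239 tested probes, 166 (0.782%) had all 4 arrays of slide 2 below all 8 arrays of slide 1 in this way. Scaling to the 75th percentile, which was lowest in control replicate 3, set that array 0.34 below the other controls and 1.40 above the CS + LPS mean on the same slide.

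The genes whose log2 signals ran most like Tmprss6 over the 12 arrays were RGD1563065 (Pearson's r = 0.985), the vomeronasal receptor Vom1r54 (r = 0.979), the olfactory receptor Or4f14d (r = 0.970), the transcription factor gene Zic2 (r = 0.968) and LOC680643 (r = 0.967). A control probe for a synthetic RNA, ERCC-00148, ran alongside them (r = 0.970). Such probes match RNAs of the External RNA Controls Consortium that a laboratory may add to a sample, and the sources used here do not say whether they were added. Its log2 signal was 8.23 to 8.36 in control, 6.76 to 7.02 in the CS + LPS group, 8.23 to 8.59 with NaHS and 8.41 to 8.58 with PPG. On this control probe too, all 3 CS + LPS arrays lay below all other arrays. Before scaling, its median signal over 35 spots was 131 to 159 in the CS + LPS group, 183 in control replicate 3 and 297.5 to 494 on slide 1. The other control probe of this kind that was well above background on at least 10 arrays, ERCC-00170, did not share this course (r = −0.18), with 5.78 to 6.80 in the CS + LPS group and overlap with every other group. Of all 96 such probes, 13 had all CS + LPS arrays below all others, and 10 of these 13 were well above background on 0 arrays. Over the tested probes the same order was seen in 784 (3.69%), and in 125 (5.09%) of the 2457 tested probes whose mean lay within 0.5 of that of Tmprss6. The reverse order, with all CS + LPS arrays above all others, was seen in 93 (0.438%). Of the 74 tested probes with r of at least 0.9 with Tmprss6, 44 had a symbol and 12 of these were receptors of smell, pheromones, taste or trace amines, against 127 of the 13356 tested probes with a symbol. The part of the slide and of these dim signals in the values of Tmprss6 was not tested.

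**Figure D3:**
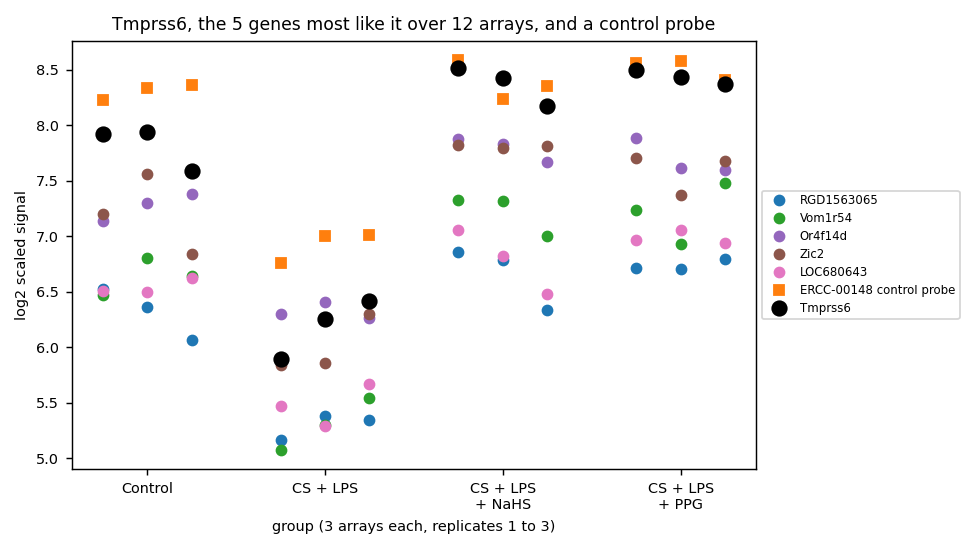
Log2 scaled signal of Tmprss6, of the 5 genes most like it and of the control probe ERCC-00148 on each of the 12 arrays, by group, replicates side by side. In all 7 probes shown the 3 CS + LPS arrays lie below every other array, and for the control probe they span 6.76 to 7.02.

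In none of 5 genes beside Tmprss6 did the CS + LPS arrays all lie below the rest. Kctd17, its neighbour in the gene table, had log2 signals of 6.60 to 6.93 in the CS + LPS group and 6.84 to 6.95 with NaHS. Il2rb, a receptor chain of lymphocytes, was 10.21 to 11.14 in the CS + LPS group and 10.75 to 11.44 with NaHS. Mpst, which makes hydrogen sulphide, was 9.39 to 9.67 in the CS + LPS group and 9.64 to 9.84 with NaHS. Of 10 markers of hepatocytes, the cells best known for Tmprss6 and Hamp, 4 were tested and 2, Fgg and Serpina1, were well above background on all 12 arrays, while albumin (Alb) was on 3 and Apoh, Fga and Fgb on 0. Fgg, a fibrinogen chain, was 9.30 to 11.60 in control and 12.44 to 12.96 over the exposed arrays and was DE and higher in all 3 exposed groups. The albumin signal was 7.82 on control replicate 3, against 2.85 and 3.26 on the other controls. The mean log2 signal of the hepatocyte list was 5.04 to 6.04 in control, 4.73 to 5.13 in the CS + LPS group, 4.97 to 5.35 with NaHS and 5.01 to 5.44 with PPG. List means here and below take in every gene of a list on the array, tested or not, so undetected probes enter them.

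Hamp, the hepcidin gene, differed widely between rats of a group, most of all in control and with NaHS. The log2 signals were 5.51, 5.60 and 10.58 in control. They were 10.76, 8.55 and 7.46 in the CS + LPS group, 5.72, 10.85 and 9.05 with NaHS, and 10.79, 10.19 and 10.26 with PPG. Only the PPG arrays were uniformly high, and they overlapped every other group. The PPG mean lay 3.18 above control (95% interval −0.14 to 6.51, adjusted p from limma 0.184). Control replicate 3 decided this value: without that array the difference was 4.86 and passed the fold change and p-value rule, though not after adjustment (adjusted p from limma 0.065). Leaving out NaHS replicate 1 or 2 left it at 3.18 and took the unadjusted p from limma from 0.059 to 0.036 or 0.046. The probe has 10 spots on each array.

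The signal of Hamp followed transcripts of heart muscle from array to array. Myh6, the heavy chain of atrial myosin, was 3.41, 4.07 and 14.80 in control, 13.22, 10.36 and 9.34 in the CS + LPS group, 4.25, 13.33 and 11.54 with NaHS, and 13.48, 12.74 and 13.56 with PPG. The same 3 arrays, control replicates 1 and 2 and NaHS replicate 1, were lowest in Myh6 and in Hamp. Over the 12 arrays, which share their scaling, Pearson's r with Hamp was 0.981 for Myh6, 0.987 for cardiac troponin I (Tnni3) and 0.993 for Csrp3, a muscle LIM protein, which are the 3 highest of 13 heart muscle genes. It was 0.860 to 0.977 for Myl7, Tnnt2, Fabp3, Myl4, Actn2 and Actc1, and 0.537 for Myl3. Myh6 and Csrp3 were well above background on 9 arrays. Of these 13 genes, a list made after the values of Hamp were seen, 10 were tested and 5 were well above background on all 12 arrays. Ryr2 and the natriuretic peptides Nppa and Nppb were well above background on 0 arrays, with r of −0.01, 0.28 and −0.22. The mean of the list ran from 5.40 to 9.58 in control, 6.72 to 8.59 in the CS + LPS group, 5.62 to 8.80 with NaHS and 8.55 to 9.17 with PPG. The heart is known to make hepcidin of its own, and pulmonary veins of rodents carry heart muscle in their walls. The part of heart muscle RNA in the differences of Hamp was not tested.

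**Figure D4:**
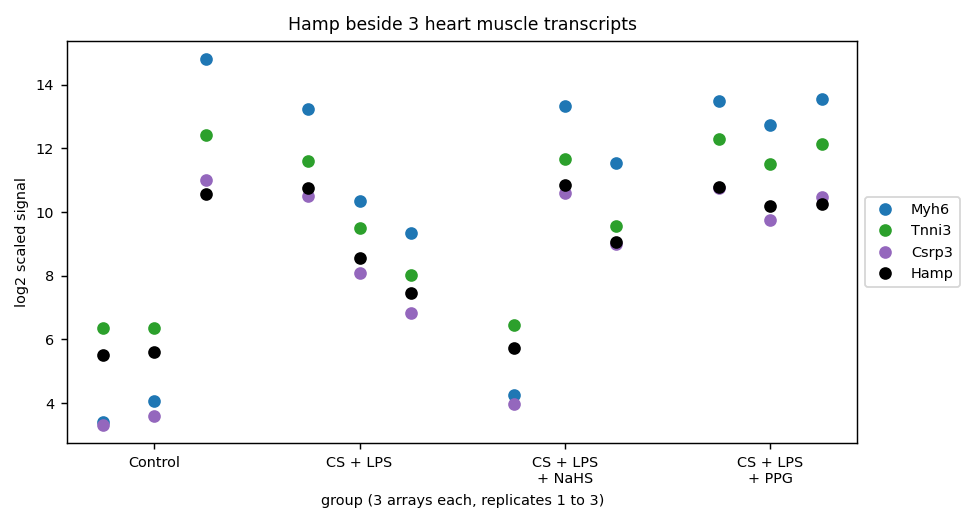
Log2 scaled signal of Hamp and of the heart muscle transcripts Myh6, Tnni3 and Csrp3 on each of the 12 arrays, by group, replicates side by side. Hamp was 5.51 to 5.72 on the 3 arrays with the lowest Myh6 (3.41 to 4.25) and at least 7.46 on the other 9.

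The stretch before the start of Hamp is shown because it holds the sites through which BMP signals, the pathway that Tmprss6 restrains, and STAT3, the mediator of inflammation, are known to switch the gene on. It is the strand of the gene in the RefSeq annotation of GRCr8, chr1:95300348-95300432 on the minus strand, 161 to 77 bases before the annotated start, with a BMP response element (GGCGCC) and a STAT site (TTCTTGGAA) in capitals.

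Hamp: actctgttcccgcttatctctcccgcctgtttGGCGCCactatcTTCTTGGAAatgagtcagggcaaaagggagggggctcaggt

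The 2 sites lie 6 bases apart and do not overlap. Within 250 bases before the start and on either strand, GGCGCC is found in 8.69% of 33469 rat promoters, TTCTTGGAA in 0.469%, and the looser TTCNNNGAA in 7.67%. Of the other members with an entry, Tfrc also held GGCGCC, while Tf, Slc11a2, Slc40a1 and Cp held none of these letters in that window. Tmprss6, Slc11a1, Fth1 and Ftl1 had no entry. The expression of 2 further genes that BMP signals are known to raise, Id1 and Smad6, is given with the wider list.

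Slc11a1, the metal transporter of macrophage phagosomes, was higher in every exposed group. The control arrays had log2 signals of 9.49, 9.80 and 8.11. Those of the CS + LPS group were 10.11, 10.28 and 10.92, of the NaHS group 10.17, 10.23 and 10.43, and of the PPG group 10.42, 10.35 and 10.21. All 9 exposed arrays lay above all 3 controls, where 13.0%, 15.7% and 19.9% of tested genes were higher without overlap in the 3 comparisons. The rise was 1.30 in the CS + LPS group (SE 0.37, 2.47-fold, adjusted p from limma 0.083), 1.14 with NaHS (2.21-fold, adjusted p 0.187) and 1.19 with PPG (2.29-fold, adjusted p 0.073). All 3 passed the fold change and p-value rule and none passed after adjustment. Control replicate 3 lay 1.53 below the other controls and decided the fold change. Without it the differences were 0.79, 0.63 and 0.68, each with an unadjusted p from limma under 0.05 but below a fold change of 2. Within slide 2 the CS + LPS mean lay 2.32 above control replicate 3. The 3 exposed groups overlapped, and the 95% interval was −0.92 to 0.70 for PPG minus CS + LPS and −0.86 to 0.76 for NaHS minus PPG.

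Macrophage markers ran alongside Slc11a1. The mean log2 signal of the macrophage list, of which 9 of 12 genes were tested, was 9.24 to 9.87 in control, 10.001 to 10.30 in the CS + LPS group, 9.98 to 10.42 with NaHS and 10.19 to 10.46 with PPG, lowest in control replicate 3 as for Slc11a1. In the CS + LPS group 4 of the 9 were DE and higher and 1, Cd163, was DE and lower, while 2 were DE and higher with NaHS and 3 with PPG, where 1.87%, 1.69% and 3.12% of all tested genes were DE and higher. The part of macrophage number in the rise of Slc11a1 was not tested.

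Tf, which codes for transferrin, was measured at 14.24, 14.06 and 13.50 in control and at 14.08, 14.36 and 14.52 in the CS + LPS group. It was 13.75, 13.68 and 13.62 with NaHS and 13.99, 14.24 and 14.11 with PPG. The NaHS arrays lay below all CS + LPS and all PPG arrays and within the range of control, which control replicate 3 extended downwards. The mean with NaHS was 0.64 below CS + LPS, a value of the comparison that chose the list. Against the PPG group on the same slide it was 0.43 lower (95% interval −0.85 to −0.01, unadjusted p 0.0458, adjusted p from limma 0.556), a 1.35-fold difference, and 26.6% of tested genes did not overlap between these groups. The CS + LPS group lay 0.39 above control (adjusted p from limma 0.225).

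The transferrin receptor gene Tfrc ranged from 10.06 to 10.51 in control, 10.23 to 11.07 in the CS + LPS group, 10.25 to 10.74 with NaHS and 10.39 to 11.20 with PPG, so all groups overlapped. Its largest difference from control, 0.41 with PPG, had a 95% interval of −0.18 to 1.00. A further probe for Tfrc was well above background on 5 arrays and was not tested. Slc11a2, the DMT1 transporter, ranged from 10.48 to 11.23 in control and from 10.69 to 11.13 over the exposed arrays, with differences from control of 0.18, 0.00 and 0.18. Its other probe gave 0.00, −0.06 and −0.05, and the probes disagreed on control replicate 3, which was 0.60 above the other controls on the former and 0.50 below them on the latter. No difference of Tfrc or Slc11a2 passed the test in any comparison tested.

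The ferritin genes had the narrowest ranges of the 10 genes. Fth1, the heavy chain that oxidises iron for storage, was 17.84, 17.80 and 18.14 in control. It was 17.64, 17.99 and 17.77 in the CS + LPS group, 17.97, 17.86 and 17.83 with NaHS, and 17.84, 17.91 and 17.99 with PPG. Its differences from control were −0.13, −0.03 and −0.01, and the 95% intervals reached at most 0.43 from 0. Ftl1, the light chain of the iron core, gave −0.15, −0.05 and 0.01 from control, with all groups overlapping. A further Fth1 probe gave −0.23, −0.05 and 0.01. Both ferritin genes are among the brightest probes, and none of their spots was saturated.

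No export gene passed the test. Slc40a1, which codes for ferroportin, was 9.51, 9.62 and 9.05 in control and 9.24, 9.36 and 9.34 in the CS + LPS group. It was 9.20, 9.43 and 9.31 with NaHS and 8.84, 9.20 and 9.50 with PPG. Its differences from control were −0.08, −0.08 and −0.21, with 95% intervals between −0.63 and 0.34. The other probe for Slc40a1 gave −0.05, 0.12 and −0.06. Cp, the ferroxidase of plasma, lay above control by 0.25, 0.39 and 0.35, with 95% intervals from −0.07 or below to at most 0.84 and adjusted p-values from limma of 0.437, 0.343 and 0.277. The dimmer Cp probe gave 0.01, 0.45 and 0.31, and control replicate 3 lay 1.15 below the other controls on it.

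The wider iron list of 85 genes, of which 77 were on the array and 74 were tested, was led by Lcn2, which codes for lipocalin 2, a protein that binds bacterial iron carriers. Its log2 signals were 12.32, 12.19 and 12.46 in control, 13.44, 13.88 and 13.83 in the CS + LPS group, 13.72, 13.90 and 13.84 with NaHS, and 13.72, 14.06 and 14.53 with PPG. All 9 exposed arrays lay above control, by 1.39 (SE 0.20, adjusted p from limma 0.0144), 1.49 (adjusted p 0.0372) and 1.78 (adjusted p 0.0065). Neutrophil markers, whose cells carry lipocalin 2, had a mean log2 signal of 7.23 to 8.01 in control, 7.54 to 7.96 in the CS + LPS group, 7.60 to 8.43 with NaHS and 7.70 to 8.33 with PPG, with overlap between all groups. Of the 10 tested neutrophil genes, 8, 10 and 9 lay above control in the 3 exposed groups by any amount, a share not worked out over all genes. Their median differences were 0.70, 0.88 and 0.99, against −0.02, 0.03 and 0.01 over all tested genes. Among the controls, replicate 3 was lowest for Csf3r, Mmp8, Mpo, S100a8 and S100a9 and highest for Camp, Ly6g6c and Prtn3. Of the 10 neutrophil genes 0, 2 and 3 were DE and higher, where 1.87%, 1.69% and 3.12% of all tested genes were. In the CS + LPS group 0 of the 10 had an unadjusted p from limma under 0.05, where 25.1% of all tested genes did. The part of neutrophils in Lcn2 was not tested.

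Calls in the list were about as frequent as over all genes. Of the 74 genes, 4 passed the rule in the CS + LPS group against control (4.62% of all genes did), with Lcn2 and Slc11a1 higher, Cd163 lower and Tmprss6, which chose the list, lower. With NaHS 2 were DE and higher, Lcn2 and Slc11a1 (3.05% of all genes). With PPG 4 were DE, Lcn2, Slc11a1 and Blvra higher and Hpx lower (5.14% of all genes). Between the treated groups 0 were DE (0.635% of all genes), with 3 at an unadjusted p from limma under 0.05 (8.51% of all genes). The median difference from control over the 74 genes was 0.12, 0.09 and 0.13.

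Of the 10 tested genes that take up and break down haem and haemoglobin, 1 was DE in the CS + LPS group, 0 with NaHS and 2 with PPG. Over all tested genes 4.62%, 3.05% and 5.14% were DE. At an unadjusted p from limma under 0.05 there were 5, 3 and 3, where 25.1%, 19.2% and 30.5% of all tested genes were. None of the 10 passed after adjustment. Cd163, the macrophage receptor for haemoglobin bound to haptoglobin, was 8.95, 8.88 and 9.13 in control and 8.79, 7.57 and 6.35 in the CS + LPS group, a difference of −1.42 (adjusted p from limma 0.161). Without CS + LPS replicate 3 it was −0.81 and no longer DE, and the call was also lost, at −1.47 to −1.35, without CS + LPS replicate 2 or any 1 of the controls. Blvra, which turns biliverdin from haem into bilirubin, was 1.08 higher with PPG than in control (adjusted p from limma 0.062), and 0.67 higher without control replicate 3, where it was no longer DE. Hpx, which codes for the haem-binding plasma protein hemopexin, was 1.20 lower with PPG (adjusted p from limma 0.061), and 0.80 lower without that array, also no longer DE. Against control, storage had 0 of 5, export 0 of 4, iron sensing 0 of 4, and mitochondrial iron and haem synthesis 0 of 18 genes DE in each exposed group. At an unadjusted p from limma under 0.05 storage had 1, 1 and 1, export 0, iron sensing 1, 0 and 1, and mitochondrial iron and haem synthesis 4, 5 and 5 in the CS + LPS, NaHS and PPG groups. Over all tested genes the shares at that p were 25.1%, 19.2% and 30.5%.

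Among the 18 tested regulators of hepcidin, 2 targets of BMP signals had an adjusted p under 0.05 with PPG, where 6.46% of all tested genes did, and this was lost for Id1 in 19 and for Smad6 in 16 of 24 other settings. Id1, an inhibitor of differentiation factors, was 13.40, 13.14 and 13.27 in control and 12.86, 12.82 and 12.70 with PPG, a difference of −0.48 (adjusted p from limma 0.0458). Smad6, an inhibitory SMAD, was 13.74, 13.84 and 13.82 in control and 13.18, 13.29 and 12.92 with PPG, a difference of −0.67 (adjusted p from limma 0.0419). In the CS + LPS group the differences from control were −0.33 and −0.39 and with NaHS −0.50 and −0.35, with adjusted p-values from limma of 0.127 or above. Markers of lung endothelium, where Smad6 is known to be strong, had a mean log2 signal of 13.01 to 13.25 in control, 12.73 to 12.78 in the CS + LPS group, 13.06 to 13.27 with NaHS and 12.75 to 13.02 with PPG, and their part in these values was not tested. Abcb10, a mitochondrial transporter of haem synthesis, was a further gene below an adjusted p of 0.05 with PPG, at −0.61 (adjusted p from limma 0.0426). It was lost in 18 of 24 settings, and the fold changes of all 3 genes were below 2. In the CS + LPS group 5 of the 18 regulators lay below control without overlap and 0 above, where 12.7% of all tested genes lay below and 13.0% above. Tmprss6, whose CS + LPS arrays chose the list, is among these 5, so the count is a description only. With NaHS 3 lay below and 3 above (11.9% and 15.7% of all tested genes), and with PPG 6 lay below and 1 above (15.4% and 19.9%). Tmprss6 is among those above in both groups, so the NaHS count is a description too.

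**Figure D5:**
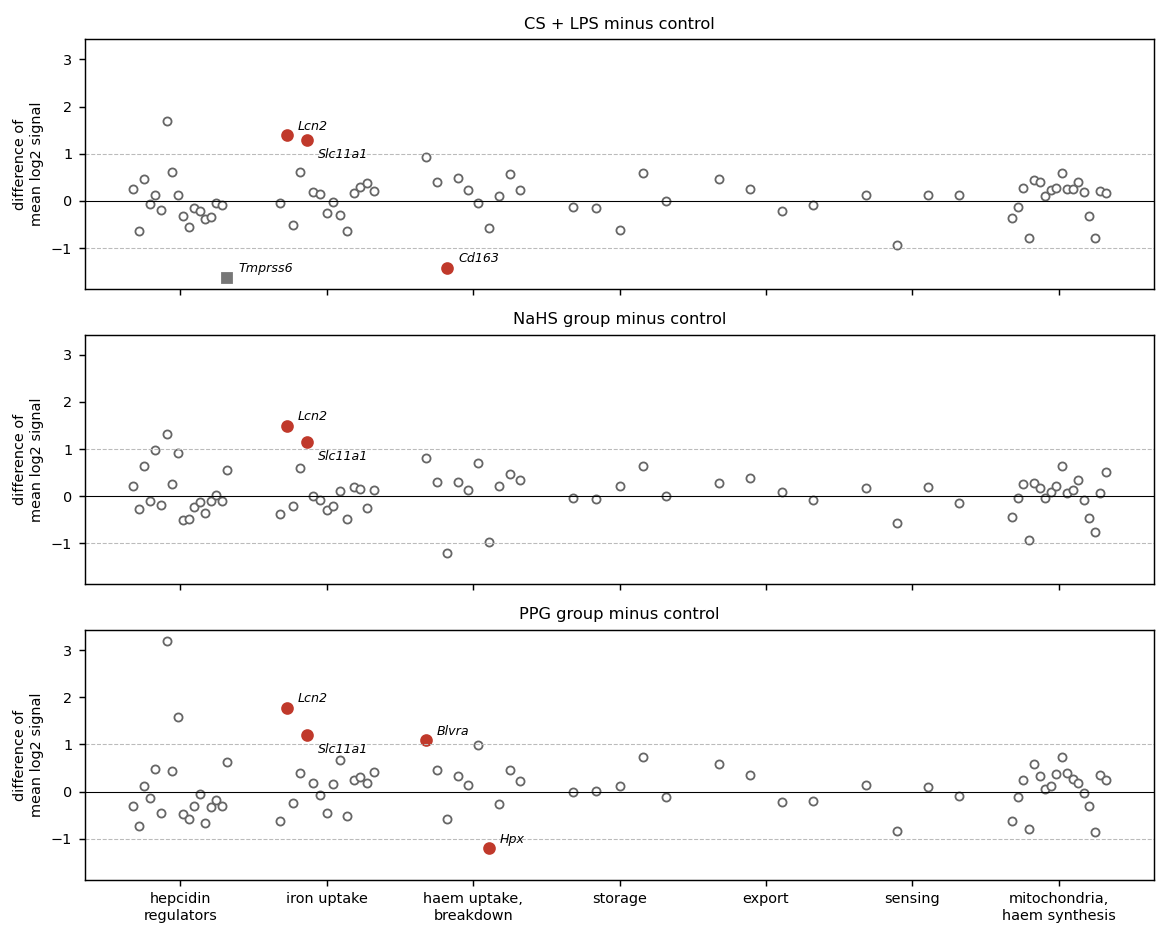
Difference of mean log2 signal from control for the 74 tested genes of the wider iron list, by class, in the 3 exposed groups; red, named points passed the fold change and p-value rule, the grey square is Tmprss6 in the CS + LPS group, which has no test, and dashed lines mark a fold change of 2. Lcn2 (1.39, 1.49 and 1.78) and Slc11a1 (1.30, 1.14 and 1.19) are red in all 3 panels.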

How the data were processed

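Lung RNA of 12 rats, 3 in each of 4 groups assigned from the labels, was measured on single-colour Agilent arrays. The authors deposited scanner output of Feature Extraction 10.7.3.1, in which the processed signal is an intensity with the background taken off, and lists of DE probes. From the lists only gene symbols and probe positions were used. Their fold changes, p-values and 60 columns of values for single arrays were not used here.

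After a log2 transform, arrays were scaled to a common 75th percentile, the mean over the 12 arrays. Outlier spots were dropped, and replicate spots were averaged per probe. A probe was tested if, in some group, 50% or more of its spots were well above background on every array (21239 of 30367). For a gene, its most intense probe was taken. RefSeq accessions named 17514 probes through a GRCr8 gene table, the lists named 194, and 12659 had no symbol.

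R 4.3.3 and limma 3.58.1 (lmFit, eBayes) were used, with all 12 arrays in 1 fit, two-sided p-values and Benjamini-Hochberg adjustment. The fits were tested on simulated data. An exact permutation test of 3 rats against 3 cannot give a p below 0.1. The number of arrays limits the precision.

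The members and lists were chosen with earlier results of these data known. Named genes are the 10 members, genes of the iron list that were DE or had an adjusted p under 0.05, and the 5 named genes most like Tmprss6. As alternatives, normalization was by quantiles or by a percentile over probes detected everywhere, background was corrected by normexp (offset 50, on the median signal, as the files hold no mean signal), outlier spots were retained, slide or replicate number entered as a block, other filters, fits of 2 groups, the methods' t-test and any probe of a gene were used, and each array was left out. Single slides were added after seeing the data.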

Additional observations from a re-analysis of the deposited data

How the results depend on the processing

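Each of 33 results, 12 counts of DE genes and 21 single differences, was recomputed without each of the 12 arrays, under 12 other settings and, chosen after seeing the data, within single slides, and no direction reversed that had been called. Lcn2 kept its side of the fold change and p-value rule in 24 of 24 settings in each exposed group. In no exposed group did its adjusted p stay under 0.05 in every setting. It reached 0.241 in the CS + LPS group, 0.206 with NaHS and 0.148 with PPG, from limma or the methods' t-test. As a description, the difference of Tmprss6 ranged from −1.74 to −1.22 for CS + LPS minus control and from 1.63 to 2.36 for PPG minus CS + LPS. The counts below include Tmprss6, whose CS + LPS arrays chose the list, and those of NaHS against CS + LPS are not tests. For the other settings, including those without an array, the share of all tested genes called was not worked out. No count below is therefore read as particular to iron genes. With slide as a block, the iron list had 17 genes past both limits in CS + LPS against control, 12 in NaHS against CS + LPS, 4 in NaHS against control and 13 in PPG against CS + LPS, and the 10 genes had 3 in NaHS against CS + LPS (Slc11a1, Tf and Tmprss6) and 3 in PPG against CS + LPS (Hamp, Slc11a1 and Tmprss6). In these fits control replicate 3 alone ties the slides, so the block rests on 1 array. Slide 2 alone holds 1 control array, so no count is given for it, and slide 1 alone gave 4 genes of the list in NaHS against control. The methods' t-test gave 2 in CS + LPS against control, 2 in PPG against CS + LPS and 1 in PPG against control for the list, and 1 in CS + LPS, 0 in NaHS and 0 in PPG against control for the 10 genes. Normexp gave 2 in PPG against CS + LPS for the list and 0 in NaHS against control for the 10 genes, and fitting only the 2 groups compared gave 3 in PPG against CS + LPS for the list. The cause of these changes was not tested.

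Leaving out 1 array gave 3 to 7 DE genes of the list in CS + LPS against control, 2 to 7 in NaHS against control, 4 to 7 in PPG against control, 1 to 3 in NaHS against CS + LPS and 1 to 4 in PPG against CS + LPS, and 1 to 2 of the 10 genes in PPG against control. The adjusted p of Id1, Smad6 and Abcb10 in PPG against control rose above 0.05 in 19, 16 and 18 of 24 settings. Replicate numbers did not pair the rats: of 18 pairs with a shared number, 2 had deviations that correlated above 0.1 (−0.31 to 0.14), and 2 samples correlated best with their own number. The replicate block moved no count, took Cd163 to a p of 0.051 from limma, and took Id1, Smad6 and Abcb10 to adjusted p-values of 0.087, 0.086 and 0.087. The dim signal of Tmprss6, near the 30th percentile of tested probes, limits its precision.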
